A study of Mus musculus with 6 samples.

Results

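Transcripts of 10 genes that encode contractile, calcium-handling and secreted proteins of cardiomyocytes were examined in RNA-seq libraries of cardiac macrophages. The genes were Myh6, Myl2, Myl3, Tnnt2, Tnni3, Actc1, Mb, Nppa, Pln and Ryr2, chosen by their names, and they are 10 of the 54532 genes listed. Their values in 3 ITGA5 fl/fl libraries were set against those in 3 Myα5KO libraries, each from an infarcted mouse heart digested individually. Mice were 12 weeks old, and hearts were taken 7 days after the left anterior descending artery had been tied off permanently. The floxed Itga5 alleles were carried by both groups, so that controls, which were littermates, differed by the absence of Cre. In Myα5KO mice Cre is driven by the lysozyme M promoter (LyzM-Cre), which is active in myeloid cells and not in macrophages alone. Macrophages were obtained on magnetic columns, first by removal of Ly6G+ cells and then by retention of CD11b+ cells, without a further gate for macrophage markers.

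Cardiomyocytes contract through sarcomeres, in which the myosin thick filament pulls on an actin thin filament whose access is controlled by the troponin complex and calcium. Macrophages do not build sarcomeres, but they engulf dying cardiomyocytes after infarction, and magnetic sorting can also carry along cell fragments and free RNA. Muscle RNA taken up by a macrophage and muscle RNA carried along with the sorted cells cannot be told apart in these libraries. Nor can fewer muscle cells or fragments be told apart from less of each transcript within them. Whether the counts of these genes come from muscle RNA at all, or from the sorted cells themselves, was not tested.

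Actc1 and Tnnt2, which encode thin filament proteins, were lower in Myα5KO than in ITGA5 fl/fl libraries, whereas 0 of the 10 genes were called higher. Actc1 fell to 49% and Tnnt2 to 61.9% of the control level. The other 7 genes that could be tested were not called, and Nppa had too few counts for the test. In every library the 10 transcripts were rare, with 283 to 421 reads in all.

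Total counts lay between 15424451 and 18419287 per library, and all Myα5KO totals exceeded those of controls. Itga5, the targeted gene, had 568 to 653 CPM (gene counts scaled to library size with TMM factors) in ITGA5 fl/fl libraries and 47.1 to 49.99 CPM in those of Myα5KO, so each library matched its label. The macrophage genes Adgre1, Csf1r, Itgam, Cd68, Fcgr1, Mertk, C1qa, C1qb, Lyz2 and Cx3cr1 were present at mean levels between 202 and 5595 CPM, so the cells carried the markers of their label. Of these 10 genes Lyz2, the locus of the Cre driver, was lower (log2 fold change -0.92), Fcgr1 (0.27) and Cx3cr1 (0.44) were higher, and 7 were not called.

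Because macrophages express cytoplasmic actins in large amounts, the sequence of Actc1 was first compared with its paralogs. Actc1 encodes cardiac α-actin (ENSMUSG00000068614, GRCm38 chromosome 2, 114047282 to 114053548, minus strand, protein coding). Its coding sequence of 1134 bases in the GENCODE M21 annotation was identical to that of Acta1 (skeletal muscle actin) at 86.2% of positions. Identity was 82.5% with Acta2 (smooth muscle actin), also 82.5% with Actb and 81.2% with Actg1, the cytoplasmic actins. The 60 coding bases within 1 exon of Actc1 that were most alike in Acta2, coding positions 748 to 807 at chr2:114049170-114049229 on the minus strand, are shown with the aligned coding bases of the other actins, 5′ to 3′. Capitals mark bases that differ from Actc1.
Actc1: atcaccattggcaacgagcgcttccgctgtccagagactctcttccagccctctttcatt
Acta1: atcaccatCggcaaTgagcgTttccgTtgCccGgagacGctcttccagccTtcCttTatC
Acta2: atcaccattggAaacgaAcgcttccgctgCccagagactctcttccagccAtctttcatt
Actb: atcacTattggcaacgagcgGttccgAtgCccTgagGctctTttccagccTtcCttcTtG
Actg1: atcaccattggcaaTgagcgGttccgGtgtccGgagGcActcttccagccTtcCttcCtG
Even in this stretch Acta2 differed at 4 of 60 positions, Acta1 and Actb at 11 and Actg1 at 10. Of 1568 words of 50 bases in Actc1 transcripts, 0 occurred in transcripts of any other gene, on either strand. The longest run shared with Actb was 32 bases. Annotated transcripts of Actb thus held no exact match of 50 bases to those of Actc1. The mean level of Actb was 2468 CPM in ITGA5 fl/fl libraries and 2745 CPM in those of Myα5KO. Whether reads of other actins, mapped with mismatches, were counted for Actc1 was not tested.

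Actc1 had 91, 86 and 92 counts in ITGA5 fl/fl replicates 1 to 3 and 49, 56 and 46 counts in Myα5KO replicates 1 to 3. Every Myα5KO library lay below every control library, and the groups were well apart. The level was 5.46 ± 0.56 CPM in ITGA5 fl/fl libraries and 2.67 ± 0.294 CPM in those of Myα5KO (SD, n = 3 each). Summed over libraries these were 269 reads (exact Poisson 95% interval 238 to 303) against 151 reads (128 to 177), where intervals cover counting error only. In the edgeR quasi-likelihood test, adjusted over all 14522 genes tested, the log2 fold change of Actc1 was -1.03 (SE 0.18, adjusted p 0.0037).

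Tnnt2 encodes cardiac troponin T, which anchors the troponin complex to the thin filament (ENSMUSG00000026414, chromosome 1, 135836354 to 135852260, plus strand, protein coding). It had 95, 85 and 106 counts in ITGA5 fl/fl libraries and 65, 61 and 77 counts in those of Myα5KO. Again the groups did not overlap. The mean level was 5.80 ± 0.717 against 3.59 ± 0.409 CPM (SD, n = 3 each), and the log2 difference between groups was -0.69 (SE 0.17, edgeR adjusted p 0.0242). This call depended on single libraries. Tnnt2 missed the threshold without ITGA5 fl/fl replicate 1 (-0.62) or 3 (-0.66) and without Myα5KO replicate 1 (-0.67) or 2 (-0.63), always in the same direction. By contrast, Actc1 was called in all 6 fits with 1 library removed, with values from -1.12 to -0.94.

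Tnni3, which encodes cardiac troponin I, the inhibitory subunit of the same complex, overlapped between the groups (ENSMUSG00000035458, chromosome 7, 4518305 to 4524229, minus strand). Its counts were 53, 96 and 60 in ITGA5 fl/fl libraries and 49, 65 and 113 in those of Myα5KO. The highest value came from Myα5KO replicate 3 and the lowest from Myα5KO replicate 1, so one group spanned the other. The log2 fold change was -0.07 (SE 0.28, edgeR adjusted p 0.914), with 4.20 ± 1.25 against 4.01 ± 1.73 CPM (SD, n = 3 each). It ranged from -0.47 without Myα5KO replicate 3 to 0.20 without ITGA5 fl/fl replicate 2. Exons of Tnni3 and of Dnaaf3, which lies on the same strand, overlap by 86 bases, and Dnaaf3 had 78 to 140 counts. The part of Dnaaf3 reads in the count of Tnni3 was not tested.

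The ratio of Actc1 to Tnni3 counts was 1.72, 0.896 and 1.53 in ITGA5 fl/fl libraries and 1.00, 0.862 and 0.407 in those of Myα5KO. The groups overlapped in this ratio, and it was lowest in Myα5KO replicate 3. Between Actc1 and Tnnt2 the ratio was 0.958, 1.012 and 0.868 in ITGA5 fl/fl libraries and 0.754, 0.918 and 0.597 in those of Myα5KO, which also overlapped. Whether the changes of single members differ from each other was not tested.

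**Figure D1:**
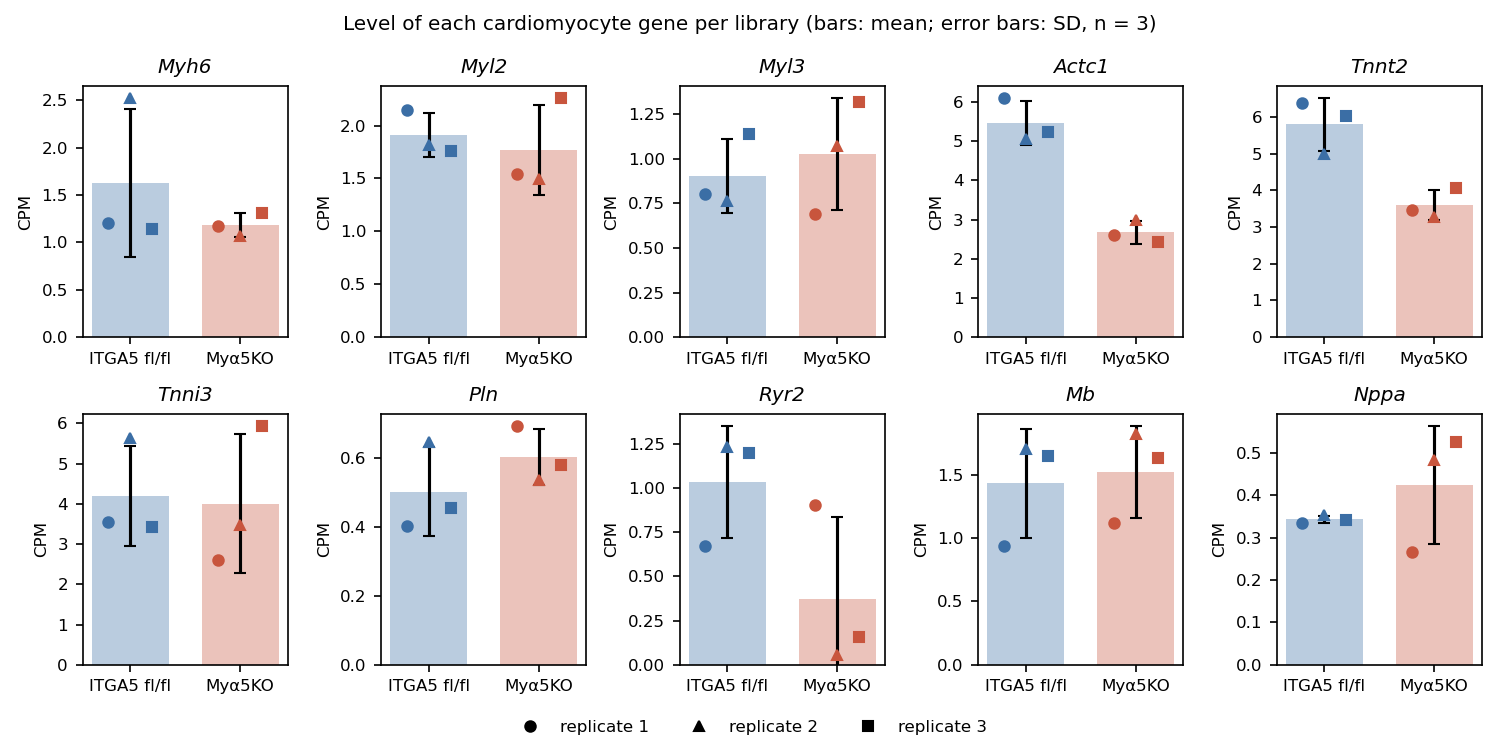
Level of each of the 10 cardiomyocyte genes in CPM, with 1 panel per gene and its own axis from 0; bars show the mean and error bars the SD of 3 libraries, and symbols show replicates 1, 2 and 3 (the lower error bar of Ryr2 in Myα5KO is cut at 0). The groups are apart for Actc1 (5.05 to 6.10 against 2.42 to 3.00 CPM) and Tnnt2 (4.99 to 6.37 against 3.26 to 4.05 CPM) and overlap for the other 8 genes.

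The thick filament genes showed no called change. Myh6 encodes α-myosin heavy chain, the main motor of the adult mouse ventricle (ENSMUSG00000040752, chromosome 14, 54941921 to 54966927, minus strand). It had 18, 43 and 20 counts in ITGA5 fl/fl libraries and 22, 20 and 25 counts in those of Myα5KO. A single control, replicate 2, stood above the other 5 libraries. The log2 fold change of Myh6 was -0.46 (SE 0.34, edgeR adjusted p 0.461), and without that library it was 0.02. Of its 50-base words 20.2% also occur in Myh7, the fetal heavy chain, which held between 0 and 5 counts per library.

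Myl2, the regulatory light chain of the ventricle, overlapped between the groups (ENSMUSG00000013936, chromosome 5, 122100951 to 122113472, plus strand). Its counts were 32, 31 and 31 in ITGA5 fl/fl libraries and 29, 28 and 43 in those of Myα5KO. In CPM, Myα5KO replicate 3 (2.26) and ITGA5 fl/fl replicate 1 (2.14) were the highest, the other 4 libraries lay between 1.498 and 1.82, and the log2 fold change was -0.11 (SE 0.26, edgeR adjusted p 0.852). Myl3, the essential light chain, had 12, 13 and 20 counts in ITGA5 fl/fl libraries and 13, 20 and 25 in those of Myα5KO (ENSMUSG00000059741, chromosome 9, 110741861 to 110769798, plus strand). These groups overlapped as well, and the log2 difference of 0.18 (SE 0.35, edgeR adjusted p 0.81) turned to -0.04 without Myα5KO replicate 3.

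Calcium handling was represented by a pump inhibitor and a release channel. Pln encodes phospholamban, which restrains the calcium pump SERCA2 (ENSMUSG00000038583, chromosome 10, 53337667 to 53345987, plus strand). It had 6, 11 and 8 counts in ITGA5 fl/fl libraries and 13, 10 and 11 in those of Myα5KO, and the log2 difference was 0.25 (SE 0.40, edgeR adjusted p 0.761). Most of its exon bases, 59.6%, overlap those of Gm47644 on the opposite strand, which held 2 to 7 counts in a library. Cep85l, also on the opposite strand, shares 141 exon bases with Pln and held 459 to 546 counts. Whether reads were counted by strand is not given in the sources used here, so the count of Pln is uncertain.

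Ryr2 encodes the ryanodine receptor that releases calcium from the sarcoplasmic reticulum (ENSMUSG00000021313, chromosome 13, 11553102 to 12106945, minus strand). Its counts were 10, 21 and 21 in ITGA5 fl/fl libraries but 17, 1 and 3 in those of Myα5KO. Myα5KO replicate 1 thus lay among the controls, whereas replicates 2 and 3 of the group held almost no Ryr2 reads. The level was 1.03 ± 0.315 against 0.372 ± 0.464 CPM (SD, n = 3 each), and the log2 difference of -1.47 (SE 0.62, edgeR adjusted p 0.169) was not called. Without Myα5KO replicate 1 it was -3.22 and was called (edgeR adjusted p 0.00831, where the 6 fits with 1 library removed spanned 0.00831 to 0.385), so the value of Ryr2 is decided by that library.

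Mb encodes myoglobin, the oxygen store of muscle (ENSMUSG00000018893, chromosome 15, 77015487 to 77050670, minus strand). It had 14, 29 and 29 counts in ITGA5 fl/fl libraries and 21, 34 and 31 counts in those of Myα5KO. In each group replicate 1 was the lowest, and the groups overlapped (log2 fold change 0.08, SE 0.31, edgeR adjusted p 0.914). Nppa encodes atrial natriuretic peptide, a hormone released by stretched cardiomyocytes (ENSMUSG00000041616, chromosome 4, 148000722 to 148002079, plus strand). It had 5, 6 and 6 counts in ITGA5 fl/fl libraries and 5, 9 and 10 counts in those of Myα5KO, and did not pass the count filter. Without the filter its log2 fold change was 0.31 (SE 0.60, edgeR adjusted p 0.85). At such counts a difference of this size was not detectable. Overlaps with antisense genes reach 27.6% of the exon bases of Mb and 61.5% of those of Nppa, and those antisense genes held at most 4 counts in a library.

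In all, 9 of the 10 genes were tested, 2 were lower and 0 were higher, against a background in which 5.19% of the 14522 tested genes were lower and 3.56% were higher. At an unadjusted p under 0.05, 3 members were lower (Ryr2 in addition) and 0 were higher, and DESeq2 called Actc1 and Tnnt2 lower and 0 higher. DESeq2 gave no adjusted p for Myl3, Nppa, Pln and Ryr2, so it could not call these. DESeq2 called 1170 genes in all, in either direction. The share of all tested genes under the unadjusted limit was not computed. Counts at that limit, here and in the lists below, therefore have no background to be read against. Libraries of the groups did not overlap for 2 members, both lower, where 13.8% of tested genes were lower and 14.9% higher without overlap. The median log2 fold change of the 9 tested members was -0.11, against 0.01 for all tested genes. Among 4979 tested genes with mean levels from 0.5 to 6 CPM, 1.53% were lower and 1.02% were higher. These members were chosen by name with earlier results of the same libraries known, so the counts are a description.

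**Figure D2:**
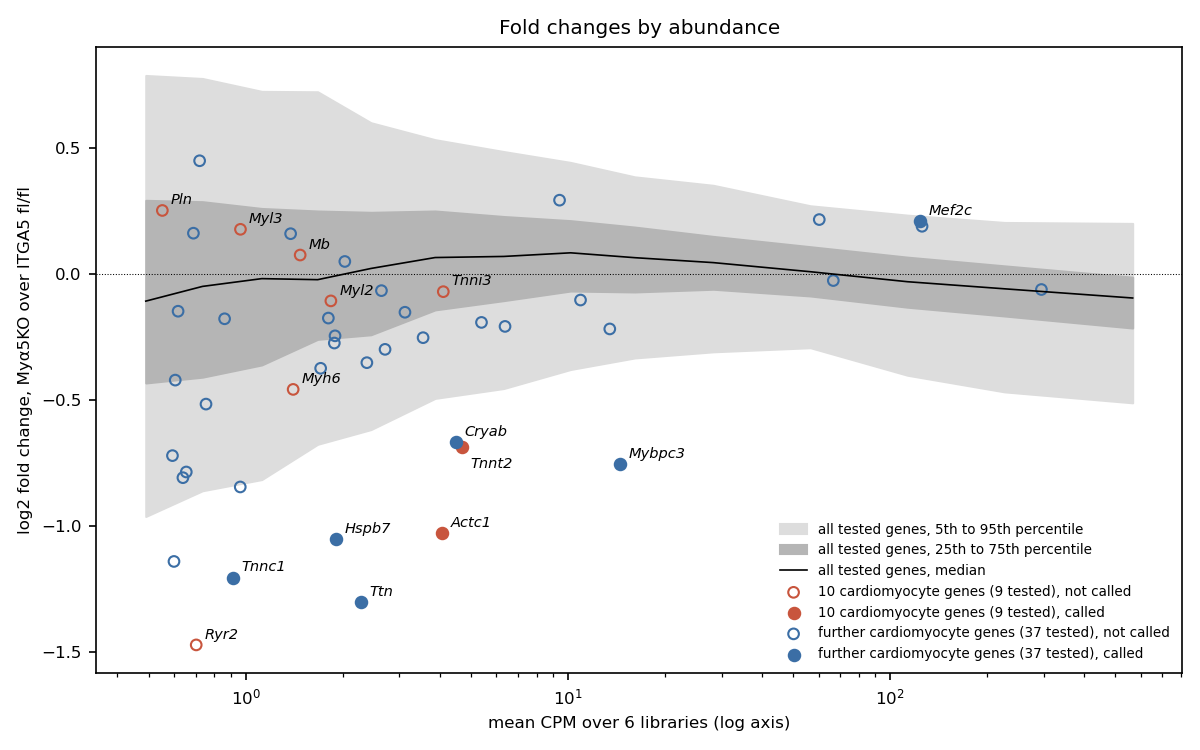
Log2 fold change (Myα5KO over ITGA5 fl/fl) against mean CPM over the 6 libraries on a log axis, with members in red, further cardiomyocyte genes in blue, filled where called, and grey bands for the 5th to 95th and 25th to 75th percentiles of all tested genes of like abundance. Actc1 (-1.03), Tnnt2 (-0.69) and Ryr2 (-1.47, not called) lie below the wider band, and the other 6 tested members lie inside it.

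Levels between genes were compared per length, as deposited FPKM averaged over the 6 libraries. Actc1 was first, at 2.50 FPKM (1.47 to 3.76), followed by Tnni3 at 1.98 FPKM (1.26 to 2.83). This first place held in ITGA5 fl/fl libraries (3.36 ± 0.352 against 2.03 ± 0.593 FPKM, SD, n = 3) and was reversed in Myα5KO (1.64 ± 0.19 against 1.92 ± 0.813 FPKM, SD, n = 3), where the ranges overlapped. Mb at 0.983 FPKM and Myl2 at 0.937 FPKM came next, then Tnnt2 at 0.602, Myl3 at 0.468 and Nppa at 0.441 FPKM. Myh6 at 0.207 FPKM, Pln at 0.199 FPKM and Ryr2 at 0.0243 FPKM closed the order. Neighbours in this order overlapped in their ranges over libraries, except that Tnni3 lay wholly above Mb and Pln wholly above Ryr2. For scale, Lyz2 averaged 4227 FPKM. Among 27687 genes with a count in any library, the members ranked between 9991 (Tnnt2) and 15339 (Nppa) by mean CPM. The deposited length of a gene sums the exons of all its isoforms, which for Tnnt2 gives 7752 bases against 3330 in its longest transcript. For Tnni3 it gives 2063 against 912, for Myl2 1950 against 889 and for Myl3 2044 against 1125. Actc1 differs little (1618 against 1473). The order, with the first place of Actc1 over Tnni3, therefore depends on the length used.

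The summed level of the 10 genes was 22.5, 24.7 and 22.4 CPM in ITGA5 fl/fl libraries and 15.1, 16.3 and 20.2 CPM in those of Myα5KO. All controls lay above all Myα5KO libraries, and the means were 23.2 ± 1.32 and 17.2 ± 2.68 CPM (SD, n = 3 each), so that Myα5KO libraries held 74% of the control sum. Actc1 and Tnnt2 together gave 12.5, 10.04 and 11.3 CPM in ITGA5 fl/fl libraries and 6.07, 6.26 and 6.47 CPM in those of Myα5KO. Without them the remaining 8 genes summed to 10.1, 14.7 and 11.1 CPM in ITGA5 fl/fl libraries and 8.997, 10.01 and 13.7 CPM in those of Myα5KO. These sums overlapped, and the Myα5KO mean was 91.3% of the control mean. No test is given for the sums.

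**Figure D3:**
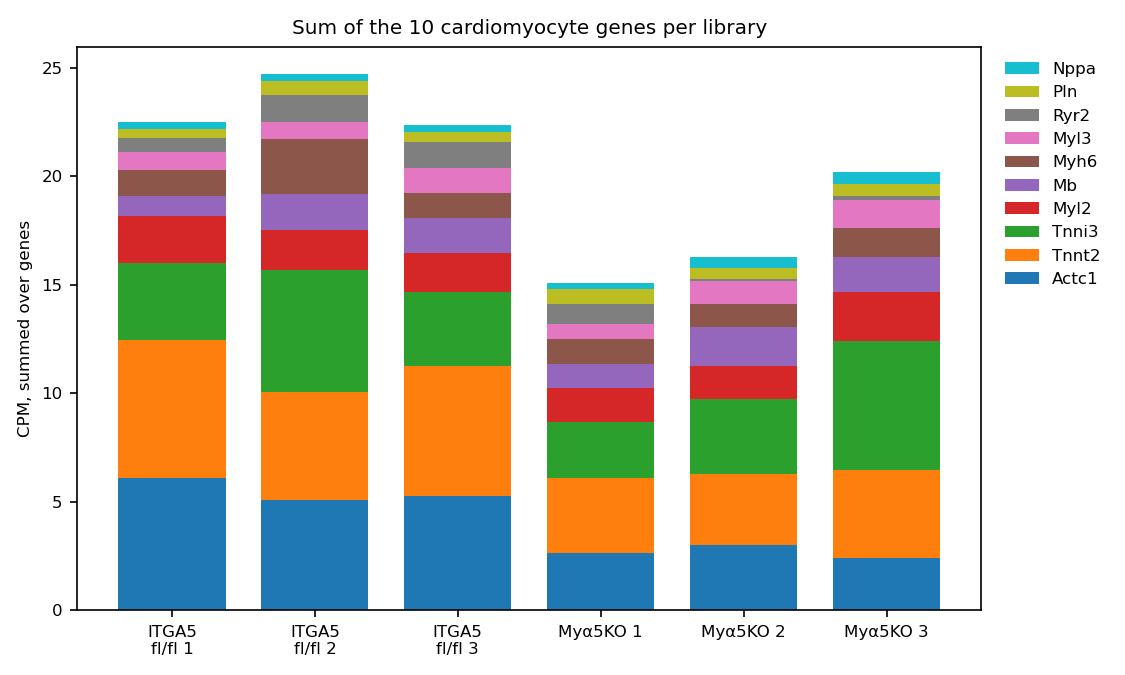
Stacked CPM of the 10 cardiomyocyte genes in each of the 6 libraries, with 1 colour per gene. Sums reach 22.4 to 24.7 CPM in ITGA5 fl/fl libraries and 15.1 to 20.2 CPM in those of Myα5KO, and Actc1 and Tnnt2 together hold 10.04 to 12.5 CPM and 6.07 to 6.47 CPM of them.

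Libraries did not share a common order. Myα5KO replicate 3 had the highest CPM of 4 members (Myl2, Myl3, Tnni3 and Nppa) and the lowest of Actc1. Myα5KO replicate 2 had the lowest CPM of 4 (Myh6, Myl2, Tnnt2 and Ryr2) and the highest of Mb. ITGA5 fl/fl replicate 1 was highest for Tnnt2 and Actc1 but lowest for Mb and Pln. The share of Actc1 in the members' sum was 27.1%, 20.4% and 23.4% in ITGA5 fl/fl libraries and 17.3%, 18.4% and 12.0% in those of Myα5KO, whereas that of Tnni3 reached 29.4% in Myα5KO replicate 3.

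Spread within groups was set against counting error, as the chi-square of a gene's counts per degree of freedom. This ratio had a median of 1.58 over 4712 tested genes with means of 10 to 100 counts. Values for Actc1 (0.756), Tnnt2 (1.17), Myl2 (1.15), Myl3 (1.30), Pln (0.37) and Nppa (0.43) were below that median, so libraries of a group varied in these genes by little more than counting error or less. Tnni3 (10.1), Ryr2 (6.19) and Myh6 (3.27) varied more, and Mb (1.79) lay just above the median. Pln and Nppa, with means of 9.83 and 6.83 counts, lie outside the set that gave the median. Each ratio rests on few libraries.

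**Figure D4:**
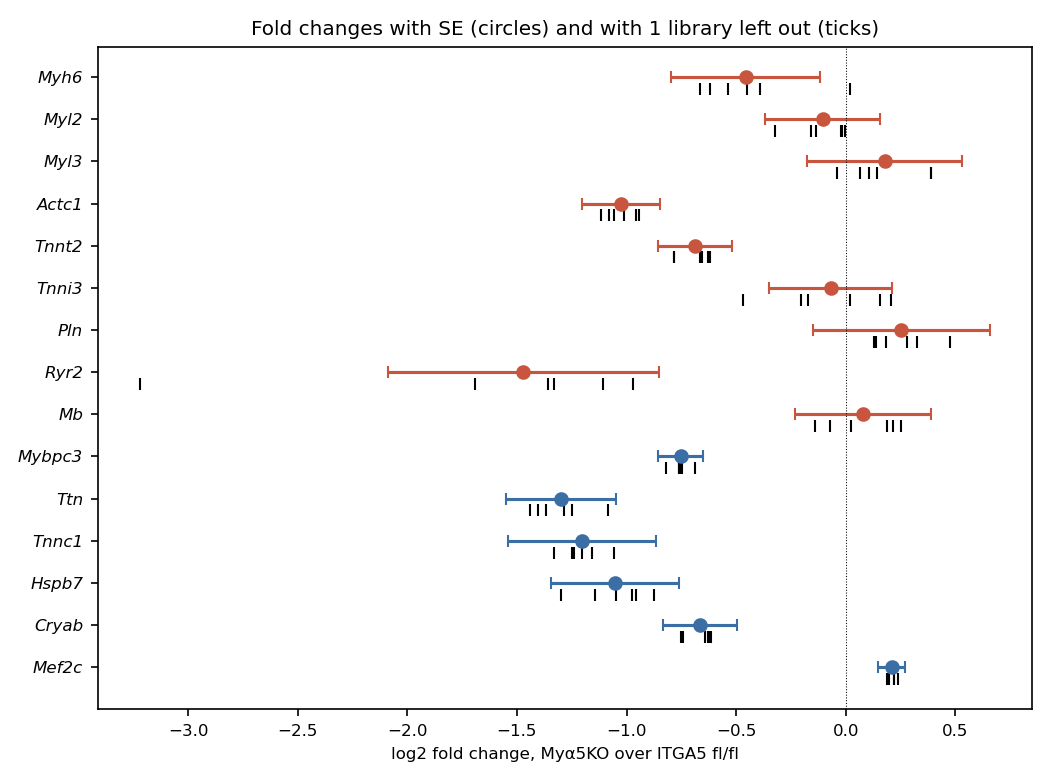
Log2 fold change (Myα5KO over ITGA5 fl/fl) of the 9 tested members (red) and of the 6 called further cardiomyocyte genes (blue); circles with bars give the estimate and its SE over 6 libraries, and ticks give the estimates with 1 library left out. Actc1 stays between -1.12 and -0.94, and Ryr2 moves from -3.22 to -0.97.

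A further 57 genes of cardiomyocytes, in 5 lists by function, were examined beside the members, and 37 were tested. Of these, 5 were lower and 1 was higher, where 5.19% of all tested genes were lower and 3.56% higher. A negative log2 fold change was seen for 29 and a positive one for 8. Their median was -0.22, and 47.2% of all tested genes were negative. DESeq2 called 3 lower and 0 higher, and gave no adjusted p for Tnnc1, which edgeR called.

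Calls among sarcomere and Z-disc genes concerned 3 of 13 tested, all lower, with a list median of -0.72. Of all tested genes 5.19% were called lower. Mybpc3, which encodes cardiac myosin-binding protein C of the thick filament, had 274, 306 and 321 counts in ITGA5 fl/fl libraries and 220, 182 and 208 in those of Myα5KO. The groups were apart and the log2 fold change was -0.75 (SE 0.10, edgeR adjusted p 0.000835). Ttn encodes titin, the molecular spring of the sarcomere, and fell from 52, 50 and 58 counts to 28, 29 and 17 counts (-1.30, SE 0.25, edgeR adjusted p 0.0069). Both were called in all 6 fits with 1 library removed. Tnnc1 encodes troponin C, the calcium sensor and the partner of Tnnt2 and Tnni3, and had 19, 23 and 21 counts against 8, 12 and 11 counts. Its log2 fold change was -1.20 (SE 0.34, edgeR adjusted p 0.0409), and it was not called whichever library was left out (-1.33 to -1.06). The abundant Myom1 (-0.22), which encodes an M-band protein, and Nrap (-0.19) were not called. Mybpc3 begins 2387 bases after the end of Spi1, on the same strand, and Spi1, a transcription factor of macrophages, was present at 448 and 422 CPM and was not called (-0.09, edgeR adjusted p 0.453). A part of Spi1 reads in the count of Mybpc3 was not tested.

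Among 5 tested genes of the stress and secreted list, 2 small heat shock proteins were lower (5.19% of all tested genes) and the median was -0.42. Cryab, which encodes αB-crystallin, had 72, 99 and 104 counts in ITGA5 fl/fl libraries and 63, 61 and 73 in those of Myα5KO (log2 fold change -0.67, SE 0.17, edgeR adjusted p 0.0259). Hspb7 had 48, 28 and 51 counts against 26, 23 and 21 counts (-1.05, SE 0.29, edgeR adjusted p 0.0402). In CPM the groups did not overlap for either gene (4.83 to 5.92 against 3.26 to 3.84 for Cryab), although counts of Cryab did, and both calls depended on single libraries. Cryab was called in 2 of the 6 fits with 1 library removed, without ITGA5 fl/fl replicate 1 (-0.75) or Myα5KO replicate 3 (-0.74), and Hspb7 in 1, without ITGA5 fl/fl replicate 2 (-1.30). Hspb6 (-0.25) and Ankrd1 (-0.35), a stress-responsive sarcomere protein, were not called. Exons of Cryab and Hspb2 on opposite strands overlap by 252 bases, and Hspb2 held at most 8 counts in a library.

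No gene was called in the calcium handling and excitation list (9 tested, median -0.15) or in the energy supply list (7 tested, median -0.10) by edgeR or DESeq2. At an unadjusted p under 0.05, 2 calcium handling genes were higher (Asph and Slc8a1), and 0 energy supply genes were in either direction. The most abundant calcium handling genes were Atp2a2 (-0.06), which encodes the pump SERCA2, Asph (0.19) and Slc8a1 (0.22), with mean levels up to 295 CPM. In energy supply these were Idh2 (-0.03), Ldhb (-0.10) and Eno3 (0.29). Several of these genes, Atp2a2 and Idh2 among them, are used by many cell types and do not mark cardiomyocytes alone. Sln, which encodes the atrial pump inhibitor sarcolipin, had 0 counts throughout, and a count of 0 leaves room for 3 counts, or 0.158 to 0.201 CPM.

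Cardiac transcription factors gave 1 call among 3 tested genes, upward (3.56% of all tested genes), with a median of -0.21. Mef2c, a transcription factor of muscle that is also active in myeloid cells, was higher, at 115 ± 2.62 CPM in ITGA5 fl/fl libraries and 133 ± 4.32 CPM in those of Myα5KO (SD, n = 3 each). The log2 fold change was 0.21 (SE 0.06, edgeR adjusted p 0.0491), and of the 6 fits with 1 library removed only the one without Myα5KO replicate 3 called it (0.24). Of 15 alternatives in all, 2 called Mef2c, and the direction was upward in all. Tbx20 (-0.21) and Gata4 (-0.27) were not called.

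Some markers of other cells were also called, in both directions. Over all tested genes 5.19% were called lower and 3.56% higher, and 13.8% were lower without overlap of the groups. Fibroblast genes, led by Col3a1, summed to between 1620 and 1899 CPM in ITGA5 fl/fl libraries and between 1211 and 1579 CPM in those of Myα5KO. All 8 had a negative log2 fold change and 1 was called, Postn (-0.40). DESeq2 called 3 of them lower, 5 were lower at an unadjusted p under 0.05, and 5 had groups that did not overlap, all lower. The smooth muscle and pericyte list (8 tested) summed to 143 to 155 and 122 to 156 CPM, with 0 genes called and 0 at an unadjusted p under 0.05, by DESeq2 also 0. Endothelial genes summed to 333 to 374 and 351 to 396 CPM, with Kdr higher (0.26) and Cldn5 lower (-0.44) among 8. Skeletal muscle genes summed to 7.57 to 8.65 and 6.47 to 7.40 CPM and had 0 calls among 4 tested by edgeR or DESeq2, with 1 lower at an unadjusted p under 0.05, and their defining myosins Myh2 and Myh4 were at 0 counts in all libraries and Myh1 at 0 or 1.

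Among blood cell lists, that of neutrophils had calls upward, where 3.56% of all tested genes were called higher. Of 6 tested neutrophil genes 5 were higher (Ltf, Camp, Ngp, S100a9 and S100a8), with sums from 31.8 to 47.9 CPM in ITGA5 fl/fl libraries and from 63.7 to 186 CPM in those of Myα5KO, while Ly6g, the antigen used for depletion, had 0 to 2 counts. The T and NK cell list summed to 2.16 to 2.41 and 3.03 to 3.94 CPM, and 0 of 2 tested genes were called by edgeR or DESeq2, with 1 higher at an unadjusted p under 0.05. The erythroid list summed to 4.62 to 8.82 and 4.05 to 5.63 CPM, and 0 of 2 tested genes were called by either tool, with 1 lower at an unadjusted p under 0.05. The macrophage list summed to 17719 to 18412 and 14165 to 14724 CPM, and most of that difference was Lyz2, at 7315 and 3874 CPM. The part of any of these cells in the values of the cardiomyocyte genes was not tested.

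**Figure D5:**
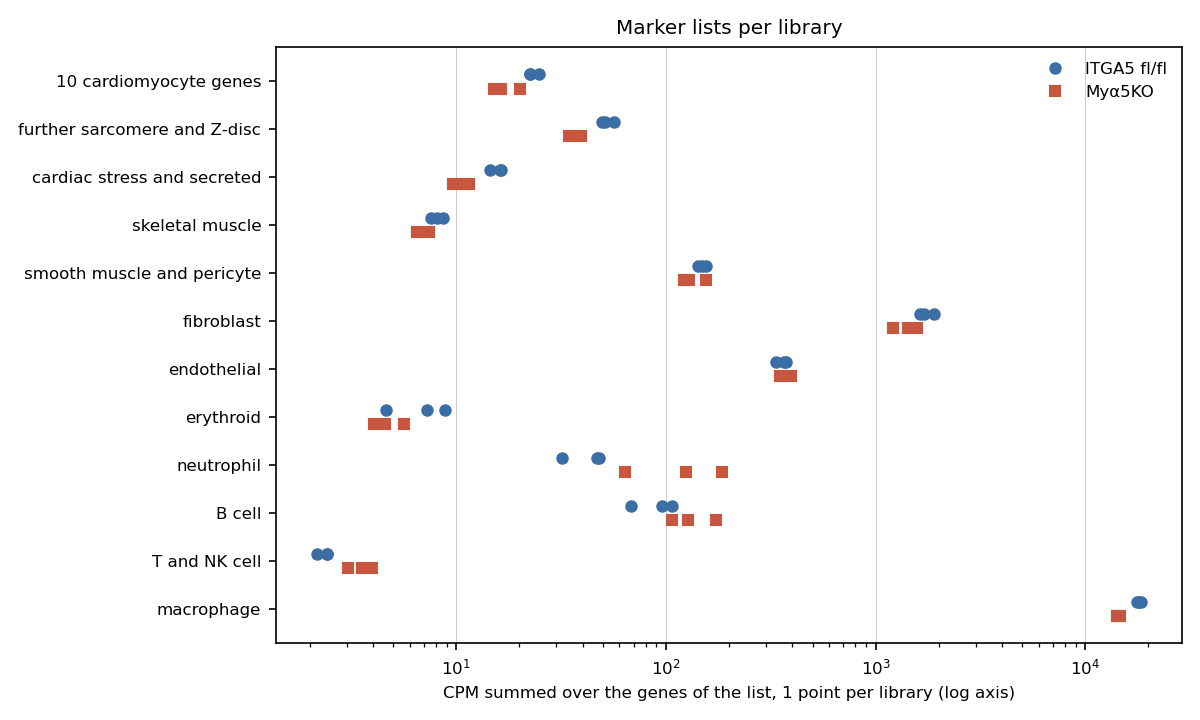
CPM summed over the genes of each marker list on a log axis, with 1 point per library (circles ITGA5 fl/fl, squares Myα5KO). The 10 cardiomyocyte genes (15.1 to 24.7 CPM) lie far below the fibroblast (1211 to 1899 CPM) and macrophage (14165 to 18412 CPM) lists.

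Among 12710 tested protein-coding genes outside the members, the pattern over the 6 libraries most like the members' sum belonged to Rps16 and Rplp2, which encode ribosomal proteins, and to Prss23, Gpr19 and Zfp655. The likeness is Pearson's r between log2(CPM + 0.5) of a gene and log2 of the summed CPM, over 6 libraries that share the same scaling. It was 0.998 for Rps16, 0.99 for Prss23, 0.989 for Rplp2, 0.987 for Gpr19 and 0.986 for Zfp655, and 222 genes reached 0.9. None of these 5 genes was called between the groups (edgeR adjusted p from 0.0813 to 0.253). Of the 37 tested further cardiomyocyte genes 1, Cryab, reached 0.9, and their median was 0.40 against -0.04 for all candidates.

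Promoters are printed for the pair of members that were lower, because both were called. The RefSeq start nearest to the start of the gene model was used for each, on GRCm38.p6, and the 250 bases before it are given 5′ to 3′ on the strand of the gene, at chr2:114052876-114053125 (minus strand) for Actc1 and chr1:135836084-135836333 (plus strand) for Tnnt2. Capitals mark matches to motifs known from muscle promoters: the M-CAT motif (CATTCC), the GATA motif (AGATAA), the CArG box, the MEF2 site and the TATA box (TATAAA), each searched on both strands except the last.
Actc1: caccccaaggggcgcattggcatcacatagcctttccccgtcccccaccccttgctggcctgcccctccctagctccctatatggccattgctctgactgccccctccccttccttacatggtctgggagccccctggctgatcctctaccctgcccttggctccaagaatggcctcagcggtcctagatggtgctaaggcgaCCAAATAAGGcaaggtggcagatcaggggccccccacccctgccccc
Tnnt2: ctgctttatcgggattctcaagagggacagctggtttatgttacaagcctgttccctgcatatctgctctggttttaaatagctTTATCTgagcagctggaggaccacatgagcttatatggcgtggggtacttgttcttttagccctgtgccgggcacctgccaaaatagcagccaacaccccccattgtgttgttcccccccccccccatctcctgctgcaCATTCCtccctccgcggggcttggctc
Actc1 held 1 CArG box, found in 1.48% of 32536 promoters of the same length. Tnnt2 held 1 M-CAT motif and 1 GATA motif, found in 12.6% and 9.97% of promoters. The pair shared none of the motifs searched, and a match of letters is a description that says nothing on binding. The start used for Actc1 lies 673 bases inside the deposited gene model, and that of Tnnt2 lies 20 bases before it. A second RefSeq start of Tnnt2, with the window chr1:135836739-135836988, held 0 matches to these motifs.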

How the data were processed

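Cardiac macrophages of 3 ITGA5 fl/fl and 3 Myα5KO mice were profiled by poly(A) RNA-seq. Per the labels and methods, the authors mapped paired-end reads of 150 bases to mm10 with TopHat2 (2.0.9) and counted them per gene with HTSeq (0.6.1), giving the deposited raw counts. The deposited FPKM values scale these by library and gene length, and are not reproduced exactly by the library totals. The library scaling behind them is not given in the sources used here. Strand and multi-mapping settings are not given in the sources used here. Genes passing filterByExpr (minimum count 10, minimum total 15) were tested on counts in edgeR (version 4.0.16, R 4.3.3) by its quasi-likelihood F test after TMM scaling, with Benjamini-Hochberg adjustment over all tested genes and a threshold of 0.05. The SE was derived from the F statistic. DESeq2 (1.42.0), limma (3.58.1) on log2(FPKM + 1) and log2(FPKM + 0.1), other scalings and filters, a replicate block and leave-one-out fits were alternatives. Named genes were all 10 members, every called gene and the 3 most abundant genes of each further cardiomyocyte list, and the 5 genes most like the members' sum; genes of other cell types were named where called or at 0, after their values were seen. The members and lists were chosen with earlier results of these data known. Total counts were 15424451 to 18419287, so 1 count equals 0.0526 to 0.067 CPM. Some results of the blood cell lists are not reported here. Scripts were tested on simulated data.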

Additional observations from a re-analysis of the deposited data

How the results depend on the processing

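Genes changed numbered 1271. They were 472 with limma on log2(FPKM + 1), 244 on log2(FPKM + 0.1), 470 at an adjusted p of 0.01, and 616 to 1091 with 1 library left out. More were called with library-total scaling (1730) and without a count filter (1738). Members lower numbered 2, and 1 on log2(FPKM + 1), where only 3 members were fitted and Tnnt2 was not, 1 on log2(FPKM + 0.1) and at an adjusted p of 0.01, 3 without a count filter and 1 to 2 with 1 library left out. Further cardiomyocyte genes lower numbered 5, against 3 with DESeq2 and log2(FPKM + 1), 2 with log2(FPKM + 0.1) and at 0.01, and 2 to 3 with 1 library left out. Of these genes, Ttn was not fitted on either FPKM scale and Hspb7 was not on log2(FPKM + 1). Tnnc1 had no adjusted p in DESeq2. The higher gene (1) became 0 with DESeq2, median-ratio or upper quartile scaling, no filter, 10 counts in every library, either FPKM scale or 0.01, 2 with library-total scaling, and 0 to 2 with 1 library left out. The median of members was -0.11, and -0.47 to 0.018 with 1 library left out. The Myα5KO to ITGA5 fl/fl ratio of summed CPM was 0.74, and 0.913 without Tnnt2 and Actc1, an alternative chosen after seeing the data. The cause was not tested.

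With 1 library left out, Myh6 ranged from -0.67 to 0.018, Myl3 from -0.041 to 0.39, Tnni3 from -0.47 to 0.20 and Mb from -0.14 to 0.25. Signs turned without ITGA5 fl/fl replicate 2 for Myh6 (0.018) and Tnni3 (0.20), without ITGA5 fl/fl replicate 1 for Mb (-0.14), without Myα5KO replicate 1 for Tnni3 (0.16), without Myα5KO replicate 2 for Tnni3 (0.019) and Mb (-0.07), without Myα5KO replicate 3 for Myl3 (-0.041), and with library-total scaling for Tnni3 (0.011); none of these was called. Actc1 was called in 15 of 15 alternatives. Tnnt2 was called in 9 of 14, with edgeR or limma adjusted p from 0.00553 to 0.155, and was not called on log2(FPKM + 0.1) (-0.59). Ryr2 was called without a count filter (-1.46, edgeR adjusted p 0.0266). That fit took the spread from genes of like abundance and not from the gene itself (prior degrees of freedom infinite, against 9.5 in the main fit). The lowest adjusted p of Tnnt2 came from the same fit.

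With the replicate block 1181 genes changed, 2 members and 3 further cardiomyocyte genes were lower and 0 were higher. Deviations of same-numbered libraries correlated at 0.052, -0.075 and 0.041, and not every library correlated best with its own number. Pairing by number was thus not seen, and whether same-numbered libraries were handled together was not tested. With 5 to 113 counts per library for most members, small differences were not detectable.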
